A study of Mus musculus with 8 samples.

Results

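The epithelial sodium channel carries sodium out of the gut lumen across the apical membrane of distal colon and kidney collecting duct cells. Aldosterone, acting through the mineralocorticoid receptor, raises its activity, partly by inducing the kinase SGK1, which keeps the ubiquitin ligase NEDD4-2 from removing the channel from the membrane. Sodium then leaves the cell through the sodium pump. The genes described here are 9 named members of this pathway: the channel subunits Scnn1a, Scnn1b and Scnn1g, the channel-activating protease Prss8, the ligase gene Nedd4l, the pump subunit Atp1b1, the glucocorticoid-inactivating enzyme Hsd11b2, and the steroid-induced genes Sgk1 and Tsc22d3. They were found by gene symbol in the platform's probe annotation, which assigns them 14 of the 44290 array features, and all 9 were among the 24030 genes and unnamed features that could be tested.

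Colon RNA was taken from 8 males of genotype mdr1a-/-, a mouse without the Abcb1a drug efflux transporter that develops colitis: 4 ate the control diet AIN-76A and 4 ate AIN-76A with curcumin, a turmeric polyphenol, at 0.2%. The labels of the control samples give the strain as Swiss, and both groups carry the same disruption, so no group here has the intact gene in its sample channel. The labels state an age of 7 weeks, while the series text describes 12 mice per diet followed from 7 to 24 weeks, and it gives the hybridized control animals as high, and the hybridized curcumin animals as low, in the colon's HIS, an inflammation score. Diet and HIS therefore cannot be told apart. Each mouse had 1 Agilent 2-colour array with its RNA in Cy3 and a reference RNA in Cy5, and no array had the dyes swapped, so a log2 ratio is relative to that reference and is not a level that can be compared between genes.

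The labels do not state which way the ratio runs. The signs below take it as sample over reference. On this reading the median of 10 liver genes was between -3.07 and -2.56 on the 8 arrays and that of 11 kidney genes between -2.49 and -1.39, so the reference held far more liver and kidney transcript than the samples, although its labels call it wild-type colon. With the opposite reading every sign would turn. The disrupted gene Abcb1a had log2 ratios of -0.67 to -0.43 in the control mice and of -0.39 to 0.05 in the curcumin mice; the position of its probe in the gene is not known here, so this checks no label. Arrays of the same diet correlated at 0.798 to 0.923. Control mouse 3 correlated with the other controls at 0.798 to 0.866, much as control mouse 2 did (0.803 to 0.874). The correlations therefore do not mark it out. Control mouse 3 stood apart from the other controls in several steroid-induced genes, so results are given with and without it. It was singled out partly by its values in Sgk1, Tsc22d3 and Scnn1g. The fits without it show how far a value rests on 1 mouse. For these genes, and for others in which it was high, their p values are no independent evidence of a difference between the diets.

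With all 8 mice, none of the 9 genes passed an adjusted p of 0.05 in limma, in either direction (3 had an unadjusted p under 0.05, as did 18.4% of all measurements), while 2.10% of all measurements were called higher and 2.63% lower with curcumin. The median log2 fold change of the 9 genes was 0.33, against -0.02 over all measurements. Among the marker lists described below, the median was 0.38 for epithelial and 0.68 for surface colonocyte genes. It was 0.11 for smooth muscle, -0.74 for leukocyte and -0.74 for fibroblast genes. In 1 of the 9, Scnn1a, every curcumin mouse lay above every control mouse, which held for 5.38% of all measurements. At the level of single features, 1 of the 14 passed, a feature of Scnn1a, where 1.98% of all features were called higher. When control mouse 3 was left out, Sgk1 and Atp1b1 passed upward and none passed downward, where 2.22% of all measurements were called higher and 3.46% lower. In that fit every curcumin mouse lay above every remaining control in 4 of the 9 genes (Scnn1a, Sgk1, Tsc22d3 and Atp1b1), as it did in 8.01% of all measurements.

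**Figure D1:**
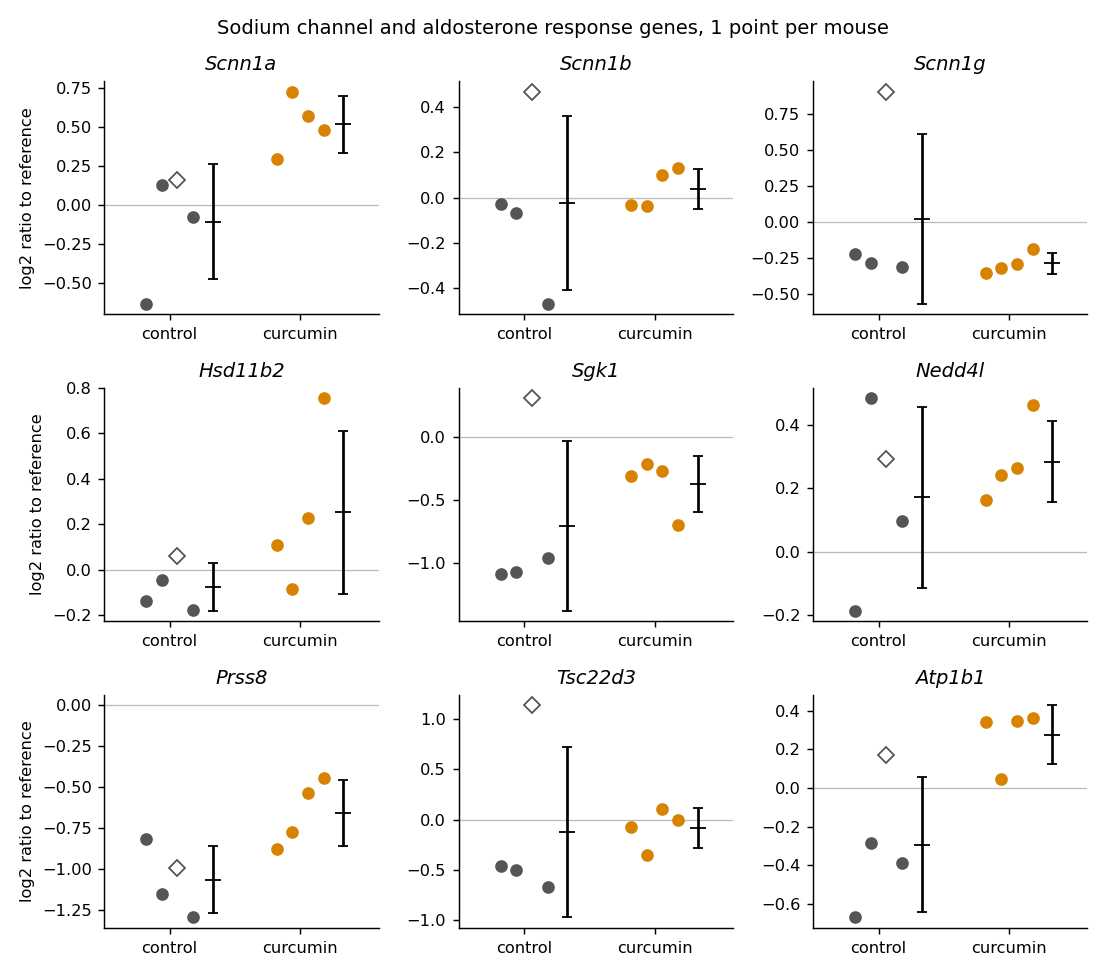
The log2 ratio to the reference is shown for each of the 9 genes in each mouse (grey, control diet; orange, curcumin diet; open diamond, control mouse 3), with the mean and SD of each diet beside the points. Control mouse 3 is the highest of the 8 mice for Scnn1b, Scnn1g, Sgk1 and Tsc22d3, and the 4 curcumin mice lie above all controls only for Scnn1a.

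Scnn1a encodes the alpha subunit, which the channel needs to conduct. Feature 34442 of Scnn1a had log2 ratios of -0.63, -0.31, 0.21 and -0.01 in control mice 1 to 4 and of 0.62, 0.81, 1.06 and 0.48 in curcumin mice 1 to 4. The groups did not overlap. The feature rose 1.90-fold with curcumin, from -0.18 ± 0.37 (SD, n = 4) to 0.74 ± 0.25 (SD, n = 4), with a difference on the log2 scale of 0.92 (SE 0.19, 95% interval 0.50 to 1.35, limma adjusted p = 0.028). Leaving out control mouse 3 gave 1.06 (SE 0.18, adjusted p = 0.0145), and leaving out any other single mouse ended the call, with adjusted p values from 0.0512 to 0.0725 and log2 fold changes that stayed between 0.78 and 1.06 over all 8 such fits. Within the range of slide numbers that holds all control mice and curcumin mice 1 and 2, the log2 fold change was 0.90 (SE 0.23, adjusted p = 0.161). The other range holds only curcumin mice 3 and 4. With the slide range as a factor over all mice the estimate is therefore the same by design (adjusted p = 0.149). This 1 size was close to the 0.92 of the fit without a slide term, which passed. Neither of the 2 fits that used the slide range passed.

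The second Scnn1a feature, 36531, is annotated to the same transcript, and its diets overlapped. It had no value in control mouse 1 and curcumin mouse 4, control values of 0.56, 0.11 and -0.15, and curcumin values of -0.04, 0.64 and 0.08. The log2 fold change was 0.05 (SE 0.23, adjusted p = 0.937). Averaged over both features, Scnn1a had a difference of 0.62 on the log2 scale (SE 0.18, adjusted p = 0.0841), in which the 2 mice with the missing value rest on feature 34442 alone. The 2 features were not reconciled here, so the rise is a result of 1 of 2 features of the gene.

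Scnn1b and Scnn1g, the beta and gamma subunits, are neighbours on mouse chromosome 7, 96.6 kb apart in GRCm38.p6 (Scnn1g at 121734420 to 121768482, Scnn1b at 121865038 to 121918728). Scnn1b had log2 ratios of -0.03, -0.07, 0.47 and -0.47 in control mice 1 to 4 and of -0.03, -0.04, 0.10 and 0.13 in the curcumin mice. Both diets were centred near 0, and the control mice spread far more widely (0.06, SE 0.17, adjusted p = 0.892). The value without control mouse 3 was 0.23 (SE 0.12, adjusted p = 0.369).

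Scnn1g had log2 ratios of -0.22, -0.28, 0.90 and -0.31 in control mice 1 to 4 and of -0.35, -0.31, -0.29 and -0.18 in the curcumin mice. Apart from control mouse 3, all 7 mice lay within a narrow band. The log2 fold change was -0.31 (SE 0.25, 95% interval -0.87 to 0.25, adjusted p = 0.585) with all mice and -0.01 (SE 0.08, adjusted p = 0.95) without control mouse 3.

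In all 3 pairs of subunits the per-mouse difference between the members was higher with curcumin. It passed in 2 of the 3, though no subunit's gene average passed alone. The per-mouse difference Scnn1a minus Scnn1g, on the log2 scale, was 0.93 higher with curcumin (control -0.13 ± 0.54, curcumin 0.80 ± 0.19, SD, n = 4 each), and every curcumin mouse lay above every control mouse (exact two-sided permutation test over the 70 splits of 8 mice, p = 0.0286, the smallest this design can give, adjusted p = 0.0429 over the 3 pairs). For Scnn1b minus Scnn1g it was 0.37 higher (exact permutation p = 0.0286, adjusted p = 0.0429), with curcumin mice at 0.28 to 0.39 and control mice at -0.44 to 0.21. For Scnn1a minus Scnn1b it was 0.56 higher and did not pass (exact permutation p = 0.0857). The 2 pairs that passed share Scnn1g, so they are not independent of each other. How large a share of other gene pairs separates the diets in the same way was not examined, so these differences are not shown to be particular to the channel. Leaving out control mouse 3 gave differences of 0.72, 0.24 and 0.48, with exact permutation p values of 0.0286, 0.0286 and 0.0857 over 35 splits. With feature 34442 alone for Scnn1a, the difference from Scnn1g was 1.23 (exact permutation p = 0.0286) and that from Scnn1b 0.86 (exact permutation p = 0.0571). Feature 36531, with a log2 fold change of 0.05, was not set against the other subunits alone. The Scnn1a differences therefore rest on 1 of 2 features of that gene.

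Sgk1 is the kinase gene through which aldosterone and glucocorticoids act early on the channel, and Tsc22d3 encodes GILZ, a leucine zipper protein induced by the same steroids. RefSeq promoter windows were matched for 5 of the 9 genes, in 12 windows of 250 bases before an annotated start. Those of Sgk1 and Tsc22d3 with the most receptor half-sites are shown because the 2 genes shared their pattern across mice. In Sgk1 only 1 of the 2 features had that pattern. Control mouse 3 was high in Scnn1g too, whose window held no half-site. Any part of these sites in the values was not tested. Capitals mark the steroid receptor half-site TGTTCT or its reverse complement AGAACA, searched on both strands. The windows lie at chr10:21993640-21993889 on the plus strand and chrX:140600523-140600772 on the minus strand of GRCm38.p6.
Sgk1: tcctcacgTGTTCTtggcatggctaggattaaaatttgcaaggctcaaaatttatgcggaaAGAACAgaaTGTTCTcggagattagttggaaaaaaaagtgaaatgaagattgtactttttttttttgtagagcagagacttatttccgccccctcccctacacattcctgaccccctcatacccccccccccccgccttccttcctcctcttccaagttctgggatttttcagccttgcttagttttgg
Tsc22d3: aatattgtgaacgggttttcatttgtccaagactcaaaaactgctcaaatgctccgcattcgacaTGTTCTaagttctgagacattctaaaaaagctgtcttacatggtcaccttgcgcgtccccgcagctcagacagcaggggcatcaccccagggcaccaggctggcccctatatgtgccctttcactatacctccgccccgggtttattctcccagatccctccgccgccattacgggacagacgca
The Sgk1 window holds 3 half-sites, which begin 242, 189 and 180 bases before the start, and the last 2 form the full palindromic response element, with the half-sites facing each other across 3 bases. That element was found in 3 of 32851 windows of the same length in the table (0.00913%), and at least 1 half-site in 16.1% of them. The Tsc22d3 window holds 1 half-site. Of the 12 windows of these genes 4 held a half-site, 3 of the 6 of Sgk1 and 1 of the 3 of Tsc22d3, and those of Scnn1b, Scnn1g and Atp1b1 held none. These matches describe the letters of the reference sequence, and binding was not measured.

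Feature 14668 of Sgk1 had log2 ratios of -2.01, -2.05, 0.76 and -1.84 in control mice 1 to 4 and of -0.45, -0.39, -0.40 and -1.19 in curcumin mice 1 to 4. Control mouse 3 was the highest of all 8, and the other 3 controls were the lowest. Control mouse 3 lay 2.73 above the mean of the other controls, a 6.64-fold difference, given here as a description with no test. With all mice the log2 fold change was 0.68 (SE 0.57, adjusted p = 0.623). Among the other 7 mice the controls were at -1.97 ± 0.11 (SD, n = 3) and the curcumin mice at -0.61 ± 0.39 (SD, n = 4), a difference of 1.36 on the log2 scale or 2.56-fold (SE 0.20, adjusted p = 0.00808). This value leaves out a mouse picked for being high in this gene, so it describes those 7 mice. In that fit 2.14% of all features were called higher and 3 of these 14 were. Within the shared slide range, control mouse 3 included, it was 0.86 (SE 0.78, adjusted p = 0.774).

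The other Sgk1 feature, 30413, stayed between -0.20 and -0.04 in all 8 mice and differed by -0.02 between diets (SE 0.07, adjusted p = 0.929). It is annotated through a different transcript record, and control mouse 3 did not stand apart in it. The average of both features gave 0.33 (SE 0.29, adjusted p = 0.628) with all mice and 0.66 (SE 0.12, adjusted p = 0.0211) without control mouse 3.

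Control mouse 3 was the highest mouse in all 3 features of Tsc22d3. The gene average was -0.46, -0.50, 1.14 and -0.67 in control mice 1 to 4 and -0.07, -0.35, 0.10 and -0.00334 in the curcumin mice. Control mouse 3 was far above every other mouse, and in the average the curcumin mice lay between it and the other controls. In feature 23563 they did not, since curcumin mouse 2 (-0.34) lay below control mice 1 and 4 (-0.26 and -0.31). The diets differed by 0.04 with all mice (SE 0.36, adjusted p = 0.968). Without control mouse 3 the curcumin mice all lay above the controls, in the average, with a log2 fold change of 0.46 that missed the threshold (SE 0.12, adjusted p = 0.0655), and the single features gave 0.59 (adjusted p = 0.0628), 0.25 (adjusted p = 0.305) and 0.55 (adjusted p = 0.0509).

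**Figure D2:**
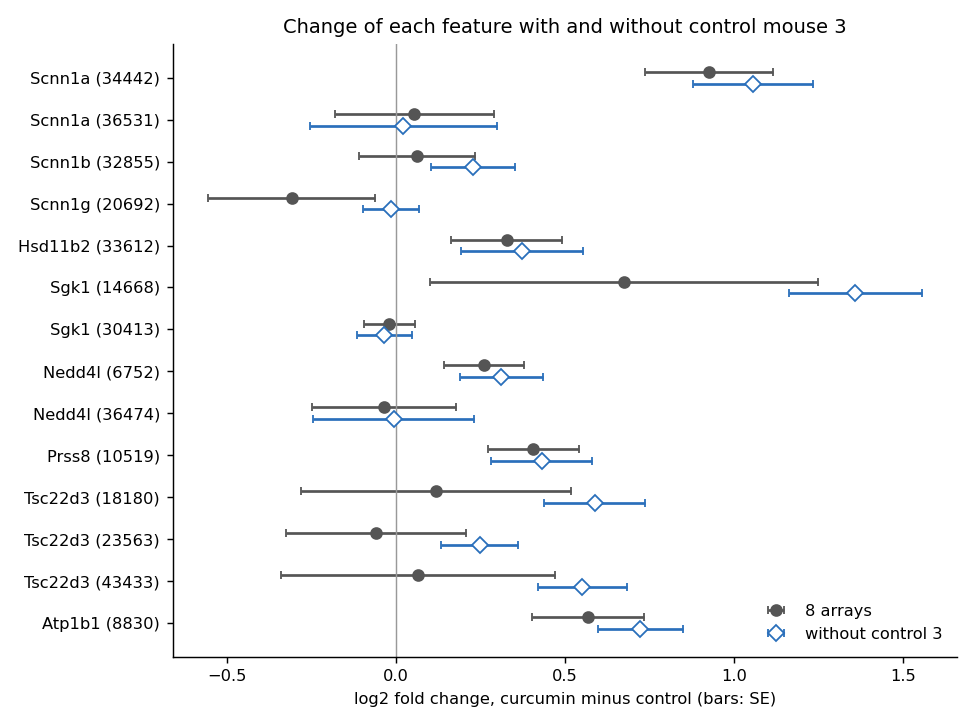
The log2 fold change of curcumin against control is plotted for each of the 14 array features (feature number in brackets) with its SE, for all 8 arrays (filled circles) and without control mouse 3 (open diamonds). Leaving out that mouse moves the first Sgk1 feature from 0.68 to 1.36 and narrows the error bars of that feature, Tsc22d3 and Scnn1g. The second Sgk1 and Scnn1a features stay near 0.

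Control mouse 3 was the highest of the 8 mice in 4 of the 9 genes, where 16.0% of all measurements with 8 values had it highest. It lay at least 1 log2 unit above the mean of the other controls, and above each of them, in Scnn1g, Sgk1 and Tsc22d3, 3 of 9, where this held for 0.618% of all measurements (135 of 21862). This limit was chosen after the values were seen. Among 12 tested genes of steroid receptors and other steroid-induced genes it was the highest mouse in 5. Of these, named after their values were seen, the clock gene Per1 lay 1.08, the transcription factor gene Klf9 0.99 and the receptor co-chaperone gene Fkbp5 0.87 above the other controls, and all 3 are known glucocorticoid-induced genes. The glucocorticoid receptor gene Nr3c1 was -0.09 and Fkbp4 -0.31 from the other controls. The mineralocorticoid receptor gene Nr3c2 was not analysed here. Control mouse 3 was also the highest in 6 of 8 fibroblast, 4 of 8 smooth muscle and 5 of 12 pump and potassium channel genes. It was the highest in 6 of 22 genes of channel proteases and regulators, 1 of 12 leukocyte, 1 of 12 epithelial and 0 of 10 surface colonocyte genes. A gap of at least 1 was held by 1 gene each of the steroid, pump, smooth muscle and fibroblast lists.

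**Figure D3:**
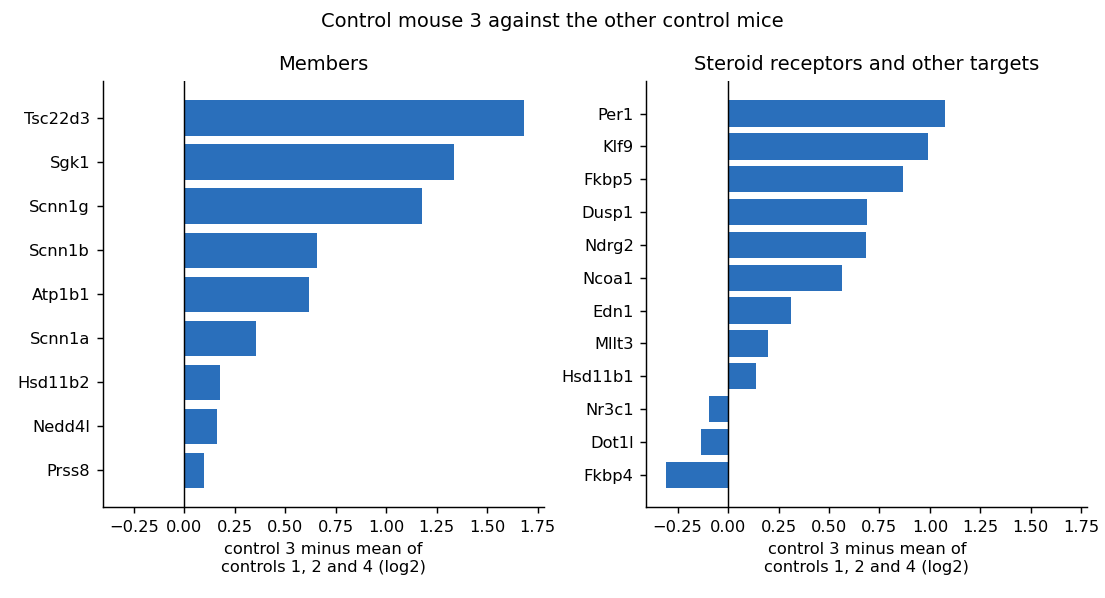
Bars give the log2 ratio of control mouse 3 minus the mean of control mice 1, 2 and 4, for the 9 genes (left) and for 12 other steroid pathway genes (right). Tsc22d3 (1.68), Sgk1 (1.34) and Scnn1g (1.18) head the left panel and Per1 (1.08) the right, while Prss8, Nedd4l and Hsd11b2 differ by under 0.20.

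Marker lists also placed this mouse apart. Control mouse 3 had the lowest median of 10 surface colonocyte genes (-0.84, other controls -0.38 to -0.21), the highest median of 8 smooth muscle genes (0.29, other controls -0.21 to -0.10) and the highest of 8 fibroblast genes (0.11, other controls -0.56 to -0.21). Its median over 12 epithelial genes was 0.34 against 0.24 to 0.33, and over 12 leukocyte genes 0.86 against 1.09 to 1.45. The part of these differences in the values of Sgk1, Tsc22d3 and Scnn1g was not tested.

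Hsd11b2, whose enzyme keeps glucocorticoids off the mineralocorticoid receptor, had log2 ratios of -0.14, -0.05, 0.06 and -0.18 in control mice 1 to 4 and of 0.11, -0.08, 0.23 and 0.75 in the curcumin mice. The groups overlapped through curcumin mouse 2, and curcumin mouse 4 was the highest. The log2 fold change of 0.33 did not pass (SE 0.16, 95% interval -0.04 to 0.69, adjusted p = 0.335). It was 0.16 without curcumin mouse 4 (adjusted p = 0.556), and the mice of the shared slide range alone gave 0.09 (adjusted p = 0.837).

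Prss8 encodes prostasin, a membrane-anchored serine protease that helps activate the channel by cleavage of its gamma subunit. Its log2 ratios were -0.82, -1.15, -0.99 and -1.30 in control mice 1 to 4 and -0.88, -0.77, -0.54 and -0.44 in the curcumin mice. Control mouse 1 lay among the curcumin mice and the other controls below all of them. The log2 fold change was 0.41 (SE 0.13, 95% interval 0.11 to 0.70, unadjusted p = 0.0126 and adjusted p = 0.125 in limma), and control mouse 3 did not stand apart in it (0.43 without that mouse, adjusted p = 0.151). Within the shared slide range the value was 0.24 (adjusted p = 0.599).

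The 2 features of Nedd4l, the ligase that retrieves the channel, differed from each other. Feature 6752 went from -0.33 ± 0.12 (SD, n = 4) to -0.07 ± 0.21 (SD, n = 4), a difference of 0.26 on the log2 scale (SE 0.12, adjusted p = 0.287). Feature 36474 had control values from 0.08 to 1.27 and curcumin values from 0.53 to 0.72, a difference of -0.04 (SE 0.21, adjusted p = 0.954). Neither feature passed, and neither did the gene average of 0.11 (SE 0.14, adjusted p = 0.743).

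Atp1b1, the beta subunit of the sodium pump that brings the enzyme to the basolateral membrane, had log2 ratios of -0.67, -0.28, 0.17 and -0.39 in control mice 1 to 4 and of 0.34, 0.05, 0.35 and 0.36 in the curcumin mice. Control mouse 3 lay above curcumin mouse 2 and below the other curcumin mice. The values of curcumin mice 1, 3 and 4 are each the 1 log2 ratio, to the digits given, that 348, 380 and 397 features share on those arrays, for a reason the labels do not state, so they do not measure how far Atp1b1 differed. The log2 fold change was 0.57 (SE 0.17, adjusted p = 0.0914) with all mice and 0.72 (SE 0.12, adjusted p = 0.0148) without control mouse 3, and both rest on these shared values. No other member held a shared value.

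The other genes of the pathway were read from 3 lists. Of 22 tested genes of channel proteases, their inhibitors, ligases and kinases, 1 rose and none fell with all mice (median log2 fold change 0.02). Of all measurements 2.10% were called higher and 2.63% lower. An unadjusted limma p under 0.05 was held by 9 of the 22, and by 18.4% of all measurements. Without control mouse 3, 3 passed upward and none downward (median 0.13), where the shares were 2.22% and 3.46%. The 1 that rose with all mice was Cnksr3, a scaffold gene induced by aldosterone in kidney cells, from -0.42 ± 0.18 (SD, n = 4) to 0.09 ± 0.16 (SD, n = 4), a difference of 0.51 on the log2 scale (SE 0.11, adjusted p = 0.037). Its call was lost in 6 of the 8 fits that left out 1 mouse (adjusted p of 0.0667 to 0.107), and it did not pass within the shared slide range (0.44, adjusted p = 0.28). The protease inhibitor genes Spint2 and Spint1 passed when control mouse 3 was left out (0.74, SE 0.14, adjusted p = 0.0229, and 0.59, SE 0.12, adjusted p = 0.0253). That mouse lay 0.51 and 0.40 above the other controls in these genes, so leaving it out widens the difference. With all mice Spint2 had 0.62 (SE 0.16, adjusted p = 0.0681). The protease gene Furin went the other way and did not pass (-0.53, SE 0.13, adjusted p = 0.0592). The largest change of the list was that of the kinase gene Sgk2, which did not pass either (1.02, SE 0.29, adjusted p = 0.0829).

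Of 12 tested steroid receptor and target genes none passed with all mice in limma (median 0.05), and 4 had an unadjusted p under 0.05, which 18.4% of all measurements had. The 2 with the smallest p were Ndrg2, an aldosterone-induced gene in rat kidney, at 0.73 (SE 0.22, adjusted p = 0.0976), and Nr3c1 at 0.23 (SE 0.07, adjusted p = 0.107). In the fit without control mouse 3, Ndrg2 passed upward (0.91, SE 0.19, adjusted p = 0.0311) and the list median was 0.20. That mouse lay 0.69 above the other controls in Ndrg2, so leaving it out widens the difference.

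Of 12 tested genes of pump subunits, pump regulators and potassium channels, 1 rose and 1 fell with all mice (median 0.08). The shares of all measurements called were 2.10% higher and 2.63% lower. An unadjusted limma p under 0.05 was held by 5 of the 12, and by 18.4% of all measurements. Without control mouse 3, 2 passed upward and 1 downward (median 0.06), where the shares called were 2.22% and 3.46%. The gene that passed only there was Kcnq1 (0.48, limma adjusted p = 0.0408), in which that mouse lay 0.75 above the other controls. Kcne3, the potassium channel subunit of colonic crypts, rose by 2.18 (SE 0.22, adjusted p = 0.0018). Fxyd5, a pump regulator also known as dysadherin, fell from 1.62 ± 0.25 (SD, n = 4) to 0.15 ± 0.21 (SD, n = 4), a difference of -1.47 on the log2 scale (SE 0.15, adjusted p = 0.0018). Fxyd4, the pump regulator of distal colon and collecting duct that aldosterone induces in rat, was chosen after its values were seen for its spread between mice. It had log2 ratios of -1.77, 0.98, 2.92 and -0.59 in control mice 1 to 4 and of 0.69, 2.58, -1.27 and 2.33 in the curcumin mice, with control mouse 3 the highest and both diets spread over more than 3 log2 units. The diets differed by 0.70 (SE 1.09, adjusted p = 0.801). The colonic proton pump gene Atp12a, also chosen afterwards, was at 0.43, 2.04, 0.33 and 2.95 in curcumin mice 1 to 4 and at 0.11 to 0.31 in the control mice (1.21, SE 0.52, adjusted p = 0.254). Curcumin mice 2 and 4 were the high ones for both genes.

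Transcripts of cell type marker genes differed between the diets as well. In limma with all mice, of 12 leukocyte genes 5 fell and none rose with curcumin, and of 8 fibroblast genes 4 fell. Of 10 surface colonocyte genes 3 rose and of 12 epithelial genes 2 rose, while of 8 smooth muscle genes none passed. Over all measurements 2.10% were called higher and 2.63% lower. An unadjusted limma p under 0.05 was held by 9 leukocyte, 8 fibroblast, 6 surface colonocyte, 6 epithelial and 0 smooth muscle genes. For all measurements this share was 18.4%. The surface colonocyte median was -0.84 to -0.21 in control mice and 0.34 to 0.64 in curcumin mice. The medians of curcumin mice 1 and 4 are themselves the shared log2 ratio of those arrays, which Aqp8, Krt20 and Guca2a held there. In curcumin mice 2 and 3, 1 of the 2 middle values averaged into the median is the shared log2 ratio of the array. The epithelial median was 0.24 to 0.34 in control mice and 0.34 to 0.52 in curcumin mice. Krt8 held the shared log2 ratio of the array in all 8 mice and Krt18 in 6, so this list too measures its cells poorly. In colon pieces fewer cells of a type and less RNA per cell cannot be told apart, and the part of these marker differences in the values of Scnn1a, Sgk1 and the other members was not tested.

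**Figure D4:**
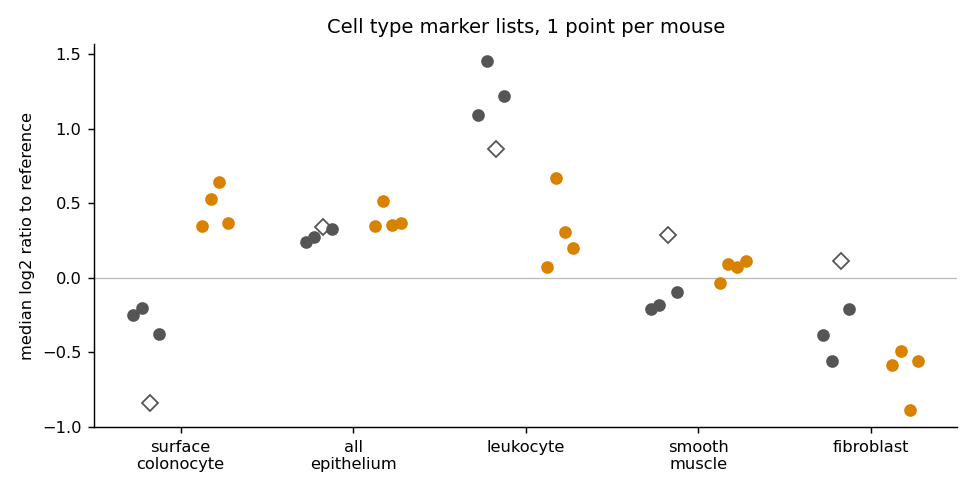
Each point is the median log2 ratio of a marker list in 1 mouse (grey, control; orange, curcumin; open diamond, control mouse 3). The leukocyte list lies at 0.86 to 1.45 in control mice and at 0.07 to 0.67 in curcumin mice, and control mouse 3 is the lowest control for surface colonocyte genes and the highest for smooth muscle and fibroblast genes.

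Genes with the most similar profile were sought among 16147 named genes with 8 values, by the root mean square difference of profiles each centred on its own mean over the 8 mice. Nearest to Scnn1a were Ceacam18 (0.13), Zfp768 (0.14), Adh1 (0.15) and the pathway gene Spint2 (0.15), where the median gene differed by 0.43. Their log2 fold changes were 0.71, 0.61, 0.72 and 0.62, a description only, since a gene chosen for a profile like that of Scnn1a shares its difference between the diets. Nearest to Scnn1b were Selenoo (0.07), Tmem225 (0.09), Nosip (0.09) and 2310039H08Rik (0.10), with a median of 0.29, and nearest to Scnn1g were Bmyc (0.11), Hbp1 (0.11), Adgrl4 (0.12) and Oga (0.13), with a median of 0.42. The profiles share the 8 arrays and the reference, and that of Scnn1g is mostly the value of control mouse 3. None of the 3 subunits was among the nearest genes of another.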

How the data were processed

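The authors deposited a log2 ratio per feature for 44290 features of 8 Agilent 2-colour arrays. Limma is the tool that the submitters' processing notes name, with no version, and the normalization steps are not given in the sources used here. Base 2 was assumed, as limma's convention. Per the labels' protocols, 500 ng of total RNA was amplified from oligo-dT primers and labelled. Between 11.4% and 23.8% of features per array had no value. A single symbol was available for 32042 features, 47 had several and 12201 none, and 31906 of 32089 named probes matched GRCm38.p6. Features with values on at least 3 arrays per diet were kept, those of 1 gene were averaged, and no scaling was applied. The fit of diet used lmFit and eBayes of limma 3.58.1 under R 4.3.3 (no covariate, two-sided, Benjamini-Hochberg over 24030 measurements or 33957 single features). Fits without 1 array kept these features. The scripts were tested on simulated data. SE is the moderated standard error, which depends on the spread between mice and on the number of arrays with a value. In the fit of diet alone it takes no account of shared log2 ratios or of the slide range. The series text calls the 4 mice of each diet biological replicates. Sequences and starts are from RefSeq. Figures used matplotlib 3.10.9 and Python 3.11.15.

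The members and lists were chosen with earlier results of these data known. Named genes were the members, list genes that passed (or the 2 with the smallest p), the 4 nearest profiles of each channel subunit, and Abcb1a. Per1, Klf9, Fkbp5, Fkbp4, Fxyd4, Atp12a, Spint1, Kcnq1, Furin and Sgk2 were added after their values were seen. Averaging before the filter on features, the single-feature fit without control mouse 3 and the alternatives of the subunit differences were also chosen after seeing the data.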

Additional observations from a re-analysis of the deposited data

Results flagged for a closer look

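In groups of 4 mice, a mouse is listed here where its gap to the nearest other mouse, as a share of the group's range, exceeded Dixon's 95% critical value, which chance gives in about 5% of groups. Among the 18 groups of the 9 gene averages there were 4 such values. Control mouse 3 stood apart in 3 of them, with gap shares of 0.925 for Scnn1g (log2 ratio 0.905), 0.91 for Sgk1 (0.30) and 0.886 for Tsc22d3 (1.14). In the fourth, curcumin mouse 2 was the low value of Atp1b1 (0.936, log2 ratio 0.05), and the other 3 curcumin mice held the shared log2 ratio of their arrays. Among single features of genes with several, control mouse 3 stood apart in Sgk1 feature 14668 (0.923) and in Tsc22d3 features 23563 (0.849) and 43433 (0.88), and curcumin mouse 4 was the low value of Sgk1 feature 14668 (0.922, log2 ratio -1.19).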

How the results depend on the processing

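The number of the 9 genes that changed was 0 with all mice. It was 1 with only features measured on all 8 arrays (Scnn1a, 0.92, adjusted p = 0.0262), 2 with array weights (Scnn1a, adjusted p = 0.0431, and Atp1b1, adjusted p = 0.0296), and 0 to 2 when 1 mouse was left out (2 without control mouse 3, 0 otherwise). With the replicate block it was 1 (Scnn1a, 0.62, adjusted p = 0.0383). The replicate numbers share no stated source, and same-numbered mice deviated together with correlations of 0.161, 0.195, -0.0113 and -0.0198, so they were not read as pairs. The other alternatives gave 0. Over all measurements 1137 changed. The count was 1800 with array weights, 743 with the replicate block, 330 with the slide range as a factor, 148 within the shared slide range and 487 to 1364 without 1 mouse, and quantile normalization turned the split from 504 higher of 1137 to 619 higher of 1108.

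Only small differences changed sign. With the slide range as a factor and within the shared range, Scnn1b was -0.0116, Tsc22d3 -0.0889, Tmem225 -0.0212 and Nosip -0.0303. Leaving out 1 mouse gave -0.085 to 0.227 for Scnn1b, -0.00644 to 0.216 for Nedd4l, -0.14 to 0.462 for Tsc22d3, -0.0719 to 0.21 for Selenoo, -0.028 to 0.311 for Tmem225, -0.0383 to 0.172 for Nosip, -0.327 to 0.0837 for Bmyc and -0.274 to 0.00877 for Oga. Of 170 alternative values of the 9 genes, 154 kept direction and call, 6 gained a call and 10 changed sign. The causes were not tested.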
